A study of Mus musculus with 8 samples.

Results

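The 10 genes described here are Rpl26, Camk2b, Cwc22, Prom2, Gm4788, C730036E19Rik, 2610507I01Rik, 9130409I23Rik, Ildr2 and Eif3j2, out of 19348 genes in a table of mouse liver RNA sequencing. They lie on chromosomes other than that of Stab1, and they were selected on their read counts, which separated Stab1 knock-out from wild-type liver in every library. Their difference between genotypes is therefore the reason for the choice and is given as a description, with no test. The study compared liver of mice with the genotype Stab1 knock-out (5 libraries) with liver of wild type mice (3 libraries), all at an age of 5 weeks. The product of Stab1 is stabilin-1, a scavenger receptor found on the endothelium of the liver sinusoids and on some macrophages. The sources used here do not give the strain, the sex, the construction of the Stab1 allele or the breeding of the wild type mice. The labels also do not say that each library stands for its own animal, so the p-values below rest on how far these libraries spread, and that spread may be partly technical. In bulk liver, fewer cells of a type and less RNA per cell cannot be told apart.

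Most of the 10 genes belong to unrelated pathways, but Rpl26 and Eif3j2 both belong to the translation machinery. Rpl26 encodes a protein of the large ribosomal subunit that is modified by the ubiquitin-like protein Ufm1 and that binds the messenger RNA of p53. Eif3j2 encodes the j subunit of the translation initiation factor eIF3 and is a close copy of Eif3j1. Cwc22 encodes a spliceosome protein that brings Eif4a3 to spliced RNA, the first step of exon junction complex assembly. Gm4788 is a gene of a family of complement regulators that act on the alternative pathway and are made mainly in liver. Camk2b encodes the beta subunit of calcium/calmodulin-dependent kinase II, best known from brain and muscle. Prom2 encodes prominin-2, a membrane protein of epithelial cell protrusions. Ildr2 belongs with Ildr1 and Lsr to the angulins, proteins of tricellular junctions. C730036E19Rik and 2610507I01Rik are long noncoding RNA genes, and the first has been described as a liver RNA linked to triglyceride handling. 9130409I23Rik is annotated as protein coding and has no assigned name.

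Rpl26 has near-identical copies in the mouse genome, and the sequences show how little separates it from the closest one, Gm15772 on chromosome 5. The 438 bases of the Rpl26 coding sequence and of Gm15772 differed at 2 positions (99.5% identity), C177T and T288C, counted from 1 at the first coding base with the Rpl26 base first. The stretch from coding base 169 to 288 holds both positions, shown in capitals, in transcripts of GENCODE M21.
Rpl26: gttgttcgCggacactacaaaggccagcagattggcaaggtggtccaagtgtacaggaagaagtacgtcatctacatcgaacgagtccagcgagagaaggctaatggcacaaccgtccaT
Gm15772: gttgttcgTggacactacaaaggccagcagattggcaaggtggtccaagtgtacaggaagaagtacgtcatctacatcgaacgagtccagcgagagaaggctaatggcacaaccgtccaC

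Upstream sequences were looked up for the genes that moved most, since 9 of the 10 were lower in knockout liver and 1 was higher. RefSeq's promoter table (build GRCm38.p6) held 9 of the 10 genes. The 250 bases before the start are shown for 3 of the genes most reduced that have no near copy, and for the only gene that was higher. Capitals mark matches to the motifs searched on both strands. Camk2b lies on the minus strand at chr11:6065749-6065998, Prom2 on the minus strand at chr2:127541418-127541667, C730036E19Rik on the plus strand at chr1:151137784-151138033 and 9130409I23Rik on the plus strand at chr1:181050987-181051236.
Camk2b: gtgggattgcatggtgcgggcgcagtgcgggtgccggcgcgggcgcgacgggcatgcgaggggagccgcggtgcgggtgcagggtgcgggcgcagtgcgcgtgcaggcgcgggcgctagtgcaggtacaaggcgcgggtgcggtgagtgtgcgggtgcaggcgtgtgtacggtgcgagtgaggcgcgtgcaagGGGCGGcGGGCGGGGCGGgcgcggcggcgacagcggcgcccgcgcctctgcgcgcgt
Prom2: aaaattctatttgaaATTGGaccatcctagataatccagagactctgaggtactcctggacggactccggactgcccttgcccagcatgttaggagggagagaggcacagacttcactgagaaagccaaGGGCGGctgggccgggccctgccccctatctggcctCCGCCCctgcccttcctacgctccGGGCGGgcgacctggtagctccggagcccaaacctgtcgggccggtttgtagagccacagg
C730036E19Rik: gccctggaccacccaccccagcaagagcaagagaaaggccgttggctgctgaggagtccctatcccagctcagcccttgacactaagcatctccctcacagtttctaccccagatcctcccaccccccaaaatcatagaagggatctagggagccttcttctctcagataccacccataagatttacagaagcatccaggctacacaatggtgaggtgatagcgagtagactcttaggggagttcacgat
9130409I23Rik: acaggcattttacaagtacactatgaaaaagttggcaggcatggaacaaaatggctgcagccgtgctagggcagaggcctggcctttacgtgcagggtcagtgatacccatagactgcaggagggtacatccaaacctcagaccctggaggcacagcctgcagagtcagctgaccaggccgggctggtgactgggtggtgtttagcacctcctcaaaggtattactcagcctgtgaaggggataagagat

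The share of G and C was 78.4% for Camk2b, 60.8% for Prom2, 53.2% for C730036E19Rik, 53.6% for 9130409I23Rik and 32.8% for Gm4788, against a median of 52.4% over 32851 promoters. The GC box letters GGGCGG were present in 4 of the 9 (Camk2b, Prom2, Ildr2 and 2610507I01Rik) and in 32.7% of all promoters. The TATA box letters TATAAA were in 0 of the 9 and in 12.4% of all. CCAAT was found for Prom2 (33.8% of all), AGGTCA, a nuclear receptor site, for Ildr2 and Cwc22 (14.0% of all) and the E box CACGTG for Ildr2 (6.02% of all). These matches describe letters in a window and say nothing of binding.

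Library totals were 4.85 M (mega) reads for knockout library 1, 8.94 to 10.5 M for the 4 others of that genotype and 10.1 to 10.8 M for wild type. The targeted gene followed the labels, with 5 to 16 Stab1 reads in the knockout and 474 to 594 in the wild-type libraries. Knockout library 1 stood apart. It held 3 reads of Xist, a female-specific RNA, and 320 of Ddx3y, a gene of the Y chromosome, whereas the other 7 libraries held 4445 to 8222 and 0 to 4. By these reads knockout library 1 has the pattern of a male and the other 7, with all wild-type libraries among them, that of females. The genotypes are thus not balanced for sex. The fold of each of the 10 genes is therefore also given without this library. Hepatocyte markers were abundant throughout, with a summed level of 71881 to 128312 CPM (reads scaled to a common library size) in knockout and 143587 to 154662 CPM in wild-type liver, with 6 of 8 log2 fold changes below 0 and 0 called. With an edgeR quasi-likelihood adjusted p below 0.05, 28 of 12338 tested genes were called, or 0.227%, with 9 higher and 19 lower in knockout liver. That count was 114 without knockout library 1, and 15, 13 and 93 when wild-type library 1, 2 or 3 was left out. Knockout and wild-type libraries did not overlap for 820 genes, or 6.65%. All 10 genes were among the tested, the called and the non-overlapping. The way they were picked requires the non-overlap and favours the call, and nothing is read from those counts.

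**Figure D1:**
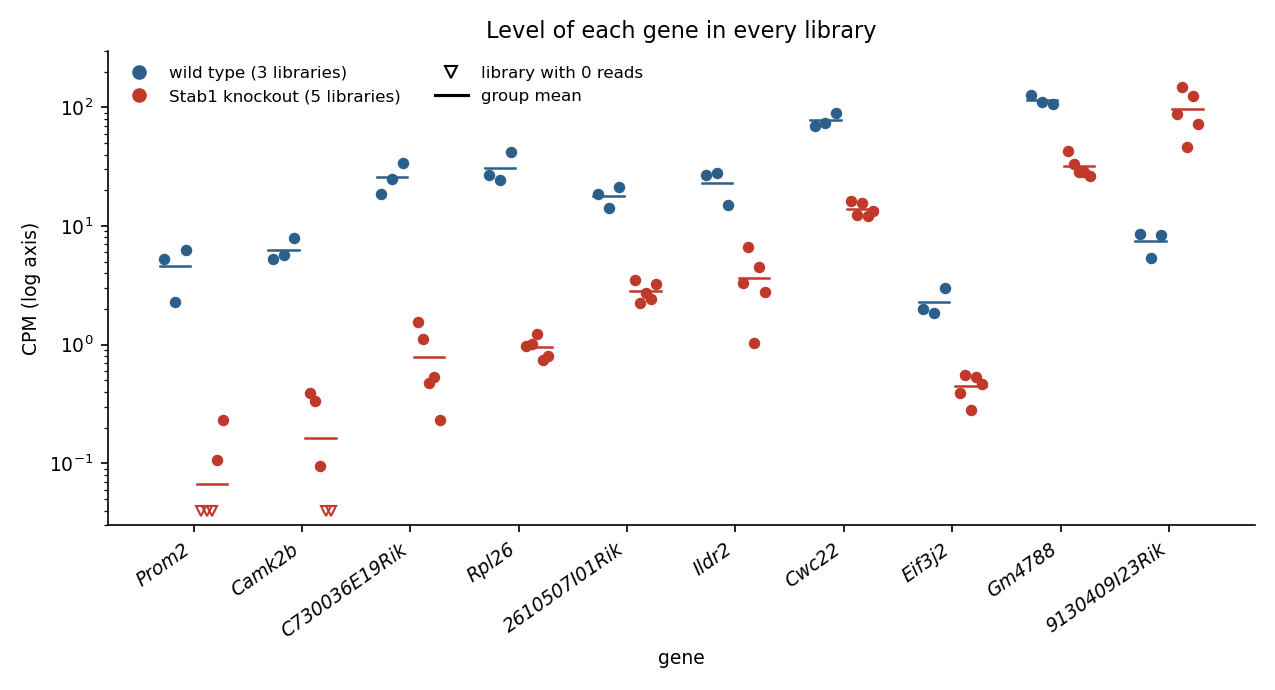
CPM of each gene in every library on a log axis, with points for libraries, lines for group means and open triangles for libraries with 0 reads. Prom2, Camk2b, C730036E19Rik and Rpl26 lie at the left with knockout means below 1 CPM, and 9130409I23Rik at the right is the only gene with all knockout points above the wild-type points.

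Only 4 of the 10 genes came close to absence in 1 genotype. Knockout liver kept 1.45% of the wild-type CPM of Prom2, 2.60% of Camk2b, 3.03% of C730036E19Rik and 3.06% of Rpl26. The 5 other lower genes kept between 15.7% (2610507I01Rik) and 27.8% (Gm4788) and were read in every knockout library. The higher gene, 9130409I23Rik, was read in every wild-type library.

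Rpl26 (gene identifier 19941), the ribosomal protein gene, had 283, 267 and 418 reads in wild-type libraries 1 to 3 and 5, 9, 13, 7 and 7 in knockout libraries 1 to 5. The groups lay far apart, and no knockout library stood out. Its mean ± SD was 31.1 ± 9.42 CPM in wild-type and 0.951 ± 0.189 CPM in knockout liver (SD, n = 3 and n = 5, as for all means below), a log2 fold change of -5.00 (SE 0.24). Wild-type CPM was 32.7 times the knockout CPM, and 32.9 times without knockout library 1.

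Eif3j2 (100042807), the other gene of the translation machinery, was low in both genotypes. It had 21, 20 and 30 reads in the wild-type and 2, 5, 3, 5 and 4 in the knockout libraries. The groups did not overlap, but a floor of 3 reads is 0.283 to 0.587 CPM in the knockout libraries, close to the level of 0.445 ± 0.111 CPM measured there. Wild-type liver had 2.28 ± 0.634 CPM (log2 fold change -2.32, SE 0.33; 5.12-fold, and 4.97-fold without knockout library 1).

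Cwc22 (80744), the splicing factor gene, was partly reduced. Wild-type libraries had 732, 798 and 903 reads and knockout libraries 83, 111, 165, 115 and 116. The knockout libraries were close together once scaled, at 12.2 to 16.2 CPM, against 69.1 to 90.5 CPM in wild type. Means were 13.9 ± 1.85 and 77.7 ± 11.3 CPM (log2 fold change -2.48, SE 0.15; 5.57-fold, and 5.81-fold without knockout library 1).

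Gm4788 (214403), the complement regulator gene, had the smallest fold difference of the 10. It had 1349, 1204 and 1068 reads in the wild-type and 220, 298, 303, 270 and 228 in the knockout libraries. The shallow knockout library 1 was the highest of its group at 43.0 CPM, and the other 4 lay between 26.3 and 33.2 CPM. Means were 115 ± 10.8 CPM in wild-type and 31.9 ± 6.69 CPM in knockout liver (log2 fold change -1.85, SE 0.17; 3.60-fold, and 3.95-fold without knockout library 1).

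Camk2b (12323), the kinase subunit gene, had 56, 62 and 79 reads in the wild-type libraries. Knockout libraries 1 to 3 had 2, 3 and 1 reads, and libraries 4 and 5 had 0, where a floor of 3 reads is 0.318 and 0.346 CPM. The wild-type level was 6.30 ± 1.41 CPM. Summed reads were 197 in wild-type and 6 in knockout liver, a ratio of 44.7 after scaling with an exact 95% counting interval of 20.2 to 123.3, which covers counting error only. The log2 fold change was -5.35 (SE 0.53). The ratio of mean CPM was 38.5, and 58.8 without knockout library 1.

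Prom2 (192212), the prominin gene, was the nearest to absence. It had 56, 25 and 63 reads in the wild-type libraries, 0 in knockout libraries 1 to 3 and 1 and 2 in libraries 4 and 5. Wild-type library 2 was low within its group at 2.30 CPM, against 5.29 and 6.31 CPM in libraries 1 and 3, and still lay above every knockout library. Summed reads were 144 and 3, a scaled ratio of 65.4 with a counting interval of 21.9 to 320.7. The ratio of mean CPM was 68.8, and 55.0 without knockout library 1. The wild-type level was 4.63 ± 2.08 CPM, and the log2 fold change was -5.79 (SE 0.64), or -6.77 without knockout library 5, which held 2 of the 3 knockout reads.

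C730036E19Rik (402734), the liver noncoding RNA, had 198, 268 and 341 reads in the wild-type and 8, 10, 5, 5 and 2 in the knockout libraries. Both groups were spread, from 18.7 to 34.2 CPM in wild type and from 0.231 to 1.56 CPM in knockout, without overlap. Means were 25.9 ± 7.80 and 0.782 ± 0.545 CPM (log2 fold change -5.15, SE 0.38; 33.0-fold, and 44.1-fold without knockout library 1, the highest of its group). The other noncoding RNA, 2610507I01Rik (72203), had 197, 155 and 212 reads in the wild-type and 18, 20, 29, 23 and 28 in the knockout libraries. Its knockout level was more even, at 2.83 ± 0.540 CPM against 18.0 ± 3.51 CPM (log2 fold change -2.69, SE 0.20; 6.37-fold, and 6.79-fold without knockout library 1).

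Ildr2 (100039795), the angulin gene, had 283, 301 and 151 reads in the wild-type libraries. Knockout libraries 1 to 5 had 17, 60, 11, 43 and 24. It varied more among knockout libraries than the other genes read in all of them except C730036E19Rik, from 1.04 CPM in library 3 to 6.69 CPM in library 2. Of the 10 genes it had the narrowest distance between groups, as its lowest wild-type library had 15.1 CPM. Means were 23.2 ± 7.01 CPM in wild-type and 3.67 ± 2.11 CPM in knockout liver (log2 fold change -2.66, SE 0.42; 6.31-fold, and 6.17-fold without knockout library 1).

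9130409I23Rik (619326) was the only gene of the group with more reads in knockout liver. Knockout libraries 1 to 5 had 450, 1340, 487, 1175 and 624 reads and wild-type libraries 90, 58 and 84. Every knockout library exceeded every wild-type library, and the knockout libraries themselves ranged from 45.9 to 149 CPM. Means were 96.0 ± 41.2 CPM in knockout liver and 7.42 ± 1.80 CPM in that of wild type (log2 fold change 3.69, SE 0.41; 12.9-fold, and 13.2-fold without knockout library 1). The order of the knockout libraries, 2, 4, 1, 5 and 3 from high to low, was that of Ildr2, although the 2 genes lie on opposite sides of wild type. With 5 libraries this is a description only.

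Per length, in the authors' deposited RPKM (reads scaled to gene length and to the library's total), the wild-type order of levels was Rpl26 (54.7 ± 16.1), Gm4788 (39.7 ± 3.75), Cwc22 (22.4 ± 3.08), C730036E19Rik (9.73 ± 2.87), 2610507I01Rik (6.17 ± 1.14), 9130409I23Rik (3.88 ± 0.910), Ildr2 (2.80 ± 0.865), Camk2b (1.55 ± 0.335), Prom2 (1.08 ± 0.476) and Eif3j2 (0.935 ± 0.252). Neighbours in this order whose wild-type libraries overlapped were C730036E19Rik and 2610507I01Rik, 9130409I23Rik and Ildr2, Ildr2 and Camk2b, Camk2b and Prom2, and Prom2 and Eif3j2. In knockout liver the order began with 9130409I23Rik (50.5 ± 21.1), Gm4788 (11.1 ± 2.70), Cwc22 (4.06 ± 0.663) and Rpl26 (1.69 ± 0.356). Rpl26 thus led the wild-type order and stood behind 3 of the other genes in knockout liver.

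Where Rpl26 had fewer reads, its copy Gm15772 had more, the gene that differs from the Rpl26 coding sequence at the 2 capitals shown above. Gm15772 had 259, 246 and 415 reads in the wild-type and 356, 716, 788, 725 and 587 in the knockout libraries. In CPM every knockout library, from 67.8 to 79.8, exceeded every wild-type library, from 22.7 to 41.6. The mean was 29.6 ± 10.4 CPM in wild-type and 73.7 ± 4.97 CPM in knockout liver (log2 fold change 1.32, SE 0.21, edgeR adjusted p = 0.0377). This call was lost without knockout library 2 (edgeR adjusted p = 0.114), 3 (0.111), 4 (0.115) or 5 (0.0790) and without wild-type library 1 (0.260) or 2 (0.202), while the log2 fold change stayed between 1.15 and 1.64 in all 12 alternatives. Gm15772 was chosen for naming after its values were seen, as the gene that shared the most sequence with Rpl26.

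Summed over both genes, the genotypes overlapped. Rpl26 and Gm15772 together reached 60.6 ± 19.9 CPM in wild-type liver (47.3 to 83.4) and 74.6 ± 5.01 CPM in knockout liver (68.6 to 80.8), a ratio of 1.23, and 1.25 without knockout library 1. Wild-type libraries 1 and 2 had 51.2 and 47.3 CPM, below every knockout library, and wild-type library 3 had 83.4 CPM, above every one. The division of the reads differed between the genotypes in every library. Rpl26 took 50.2% to 52.2% of the sum in the wild-type and 0.956% to 1.62% in the knockout libraries. Of the 49-base windows of the Rpl26 transcript, 71.5% also occur in transcripts of 12 other genes, and 61.1% occur in Gm15772. Within the coding part the shared windows were 87.7%, and outside it 0%. The header of the deposited counts calls the reads unique, and the sources used here do not say how a read that fits both genes was placed, so the level of either gene alone is uncertain.

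**Figure D2:**
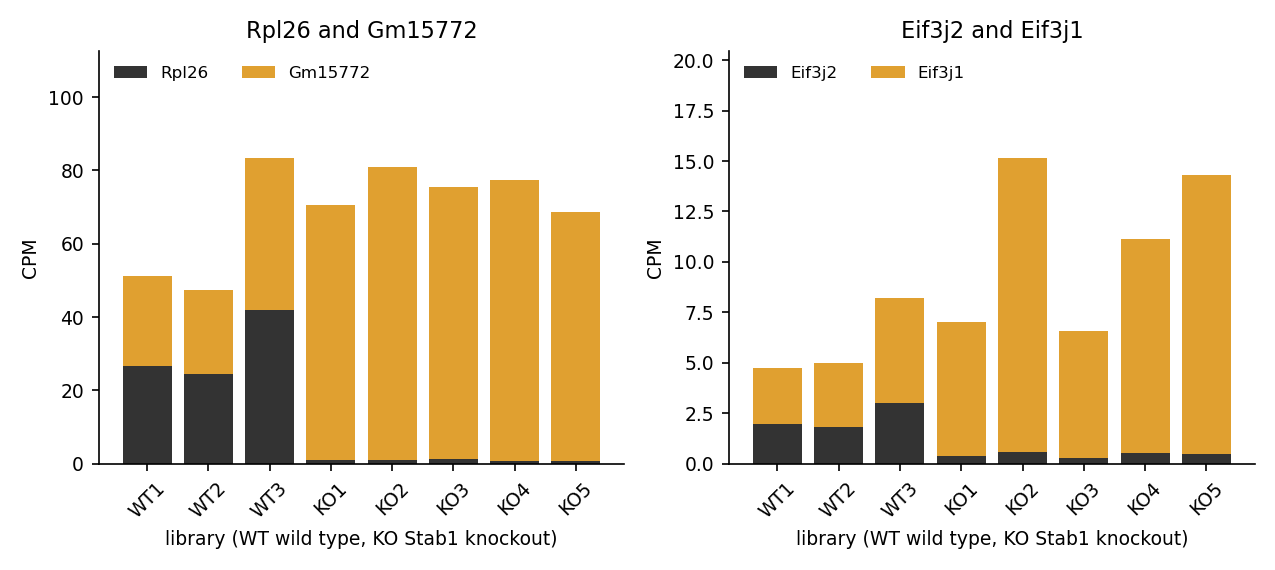
Stacked bars of CPM per library for Rpl26 with Gm15772 (left) and Eif3j2 with Eif3j1 (right), wild-type libraries first. The dark part, Rpl26 or Eif3j2, shrinks to a thin base in all 5 knockout libraries, while the height of the whole bar for Rpl26 and Gm15772 lies between 47.3 and 83.4 CPM in all 8 libraries.

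For Eif3j2 and its copy Eif3j1 the division of reads also differed between genotypes, at much lower depth. Eif3j1 had 29, 34 and 52 reads in the wild-type and 34, 131, 67, 100 and 120 in the knockout libraries. Its CPM was 3.69 ± 1.33 in wild-type and 10.4 ± 3.88 in knockout liver, and it was not called (log2 fold change 1.50, SE 0.35, edgeR adjusted p = 0.231; DESeq2 adjusted p = 0.00960). Eif3j2 took 36.6% to 42.0% of the summed reads in the wild-type and 3.23% to 5.56% in the knockout libraries. The sum was 5.97 ± 1.95 CPM in wild-type and 10.8 ± 3.97 CPM in knockout liver, a ratio of 1.82, and 1.98 without knockout library 1. Only wild-type library 3 (8.21 CPM) overlapped the knockout libraries. Wild-type libraries 1 and 2 had 4.72 and 4.98 CPM, below the lowest knockout library (6.60 CPM). Of the Eif3j2 windows, 92.0% occur in other genes, and 90.9% in Eif3j1.

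The other genes shared less. Of the Cwc22 windows, 32.4% occur in a group of predicted copies led by Gm13691, which were not analysed here, and Cwc22 shares 187 exon bases with Gm13727 on the same strand. Of the Gm4788 windows, 21.6% occur elsewhere, including 5.02% in Cfhr2. Of the Ildr2 windows, 9.98% occur in 5330438I03Rik, a gene on the opposite strand with 911 shared exon bases, and without known strandedness the reads of such a pair cannot be told apart. Camk2b, Prom2, 9130409I23Rik, C730036E19Rik and 2610507I01Rik shared 0% of their windows with other transcripts. The reference transcripts of the last pair, at 1102 and 1360 bases, are shorter than the deposited gene lengths of 2640 and 2905 bases, so part of those genes was not compared.

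The deposited coverage, the percent of a gene's length that reads touched, showed whether the remaining reads lay along the whole gene. It was set against the coverage expected if the same number of 49-base reads fell at random along the gene. All positions were taken as equally likely and overlaps were allowed, and this value is called even coverage here. Gm4788 was the plainest case. Its reads covered 94.7% to 95.3% of the gene in wild-type libraries and 32.0% to 41.3% in knockout libraries. The knockout libraries still had 220 to 303 reads, enough for an even coverage of 97.7% to 99.4%. The ratio of deposited to even coverage was 0.327 to 0.415 in knockout and 0.947 to 0.953 in wild type. Over all genes at an even coverage of 90% to 99%, knockout libraries had a median ratio of 0.887 and a 5th percentile of 0.628, and at 99% or more 0.952 and 0.682.

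Among 3836 genes with an even coverage of at least 95% in every library, Gm4788 had the widest separation in this ratio, with the lowest wild-type library 0.53 above the highest knockout library. The next genes were Timd2 at 0.18 and Cfhr2, a neighbour of Gm4788 from the same family, at 0.0957. Wild type exceeded knockout in every library for 184 of the 3836 genes, and knockout exceeded wild type for 30. Timd2 was named after its values were seen. The coverage gives the share of the gene touched and not where along it the reads lay.

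2610507I01Rik also had reads on less of its length than their number would cover. Its coverage was 87.0% to 91.2% in the wild-type libraries, 0.894 to 0.945 of the even value. In knockout libraries 1 to 5 it was 11.5%, 13.3%, 27.9%, 16.7% and 17.9%, or 0.436 to 0.716 of the even value, with library 3 the highest. Knockout libraries as a whole had a median ratio of 0.913 and a 5th percentile of 0.634 at this depth (10% to 50% even coverage), and 4 of the 5 libraries lay below that percentile.

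For Cwc22 the ratio to even coverage overlapped between genotypes, whereas the coverage itself did not. Its coverage was 63.4% to 79.7% in knockout libraries and 87.2% to 91.0% in those of wild type, and the ratio was 0.786 to 0.917 and 0.872 to 0.910. C730036E19Rik and Ildr2 had ratios of at least 0.910 and 0.818 in every knockout library. 9130409I23Rik was covered over 90.1% to 91.4% in knockout libraries and 71.3% to 74.4% in those of wild type, with ratios above 0.80 in all 8. For Camk2b and Prom2 the few knockout reads covered at most 3.64% and 2.30%.

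Of the genes with near copies, both had a low ratio to even coverage in wild-type libraries. Rpl26 was covered over 55.9% to 60.1% in wild-type libraries, where randomly placed reads would cover the whole gene, and over 27.1% to 36.7% in knockout libraries. Its wild-type ratio of 0.559 to 0.601 lay below the wild-type 5th percentile of 0.708, and its knockout ratio of 0.391 to 0.767 was above the wild-type values in 4 of 5 libraries. Gm15772 was covered over 50.7% to 52.5% in wild-type and 51.0% to 52.9% in knockout libraries, so its coverage overlapped between genotypes while its CPM did not. Eif3j2 was covered over 10.5% to 13.2% in wild-type libraries, or 0.228 to 0.378 of the even value, and in knockout libraries the ratio was 0.340 to 0.836.

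**Figure D3:**
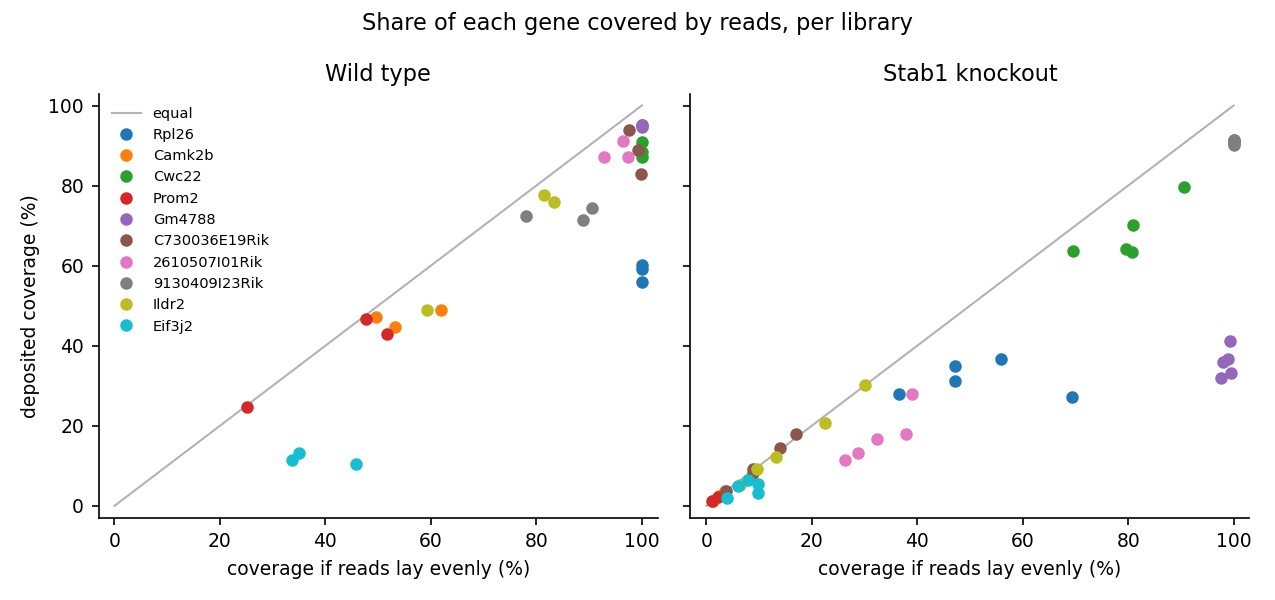
Deposited coverage against even coverage, that expected of 49-base reads placed at random along the gene, in percent, per gene and library. Wild type is on the left and Stab1 knockout on the right, with the line of equality. Gm4788 sits at 94.7% to 95.3% in wild type and drops to 32.0% to 41.3% at nearly the same position on the x axis in knockout, while Eif3j2 lies at 10.5% to 13.2% in wild type, under the line.

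The genes lie on 4 chromosomes, 4 on chromosome 1 (Gm4788, C730036E19Rik, Ildr2 and 9130409I23Rik, in that order), 2 on chromosome 2 (Cwc22 and Prom2), 3 on chromosome 11 (Camk2b, 2610507I01Rik and Rpl26, in that order) and 1 on chromosome 18 (Eif3j2). The closest pair, Gm4788 and C730036E19Rik, had 13 tested genes between them, 0 of them called. Between the next closest, 2610507I01Rik and Rpl26, lay 77 tested genes with 0 called. Between C730036E19Rik and Ildr2 lay 82 with 0 called. Longer intervals each held 1 called gene, Ifi202b between Ildr2 and 9130409I23Rik (102 tested genes), Pttg1 between Camk2b and 2610507I01Rik (212) and Cep152 between Cwc22 and Prom2 (241), the last named after its values were seen.

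None of the genes next to the 10 was called. Of the 5 tested genes on each side of each gene, 100 in all, 0 were called by edgeR or by DESeq2 and 15 had an unadjusted p below 0.05. Over all tested genes 0.227% were called by edgeR and 13.6% had an unadjusted p below 0.05, so both counts were near the background. Among the 100 the lowest edgeR adjusted p was 0.301, of Pfas. Their median log2 fold change was -0.01, the same as over all tested genes, with 51 lower and 49 higher. Beside Rpl26 the nearest tested genes were Ndel1 (0.03, SE 0.21) and Arhgef15 (-0.52, SE 0.21). Beside Cwc22 they were Zfp385b (-0.40, SE 0.22) and Ube2e3 (0.60, SE 0.25), and beside Camk2b Ykt6 (-0.21, SE 0.14) and Nudcd3 (0.07, SE 0.17). Prom2 lay between Fahd2a (0.36, SE 0.25) and Zfp661 (-0.11, SE 0.21). C730036E19Rik lay between Hmcn1 (0.19, SE 0.24) and Ivns1abp (-0.22, SE 0.18), and 2610507I01Rik between Guk1 (-0.04, SE 0.22) and Mrpl55 (0.14, SE 0.17). Ildr2 had Pou2f1 (-0.29, SE 0.21) and Tada1 (0.19, SE 0.16) at its sides, and Eif3j2 had Dcp2 (-0.31, SE 0.16) at one side. The nearest genes of 9130409I23Rik, Ephx1 (-0.43, SE 0.19) and Nvl (-0.62, SE 0.18), had values on the other side of 0 from it.

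Gm4788 lies beside Cfhr2, a gene of its own family. Cfhr2 had 323 ± 52.6 CPM in wild-type and 423 ± 207 CPM in knockout liver (log2 fold change 0.39, SE 0.37, edgeR adjusted p = 0.622). It was not called, and its value lay on the other side of 0 from Gm4788.

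**Figure D4:**
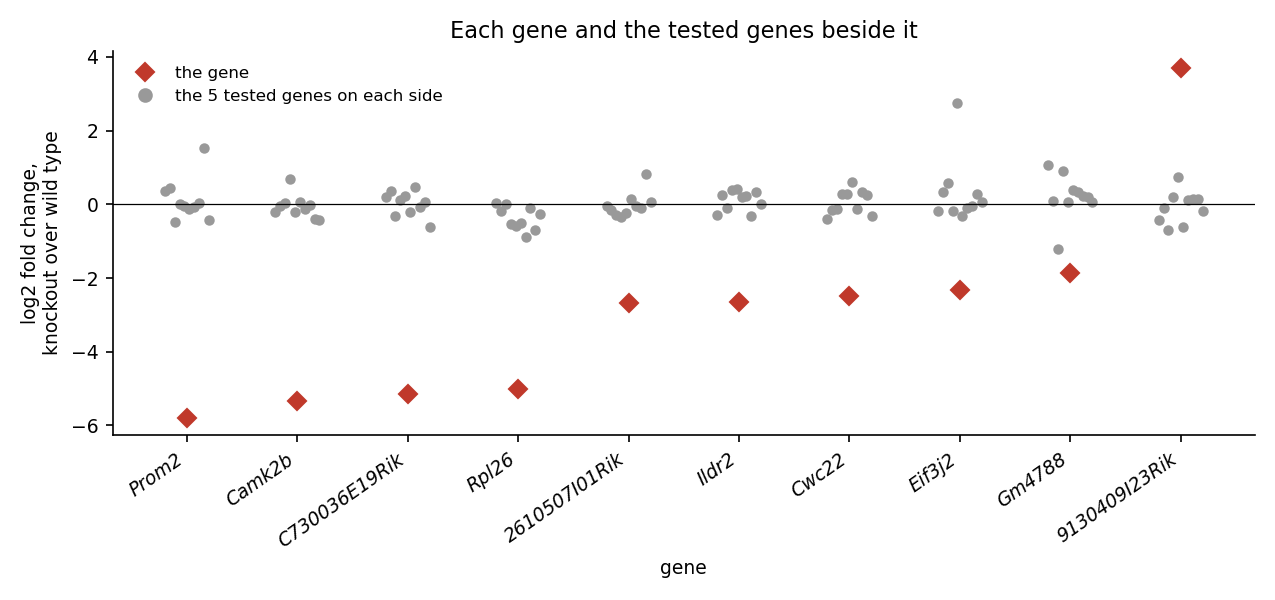
Log2 fold change (knockout over wild type) of each gene as a diamond and of the 5 tested genes on each side as grey points. The diamonds lie between -5.79 and -1.85, or at 3.69 for 9130409I23Rik, and the grey points gather around 0, with the point far above 0 beside Eif3j2 belonging to Prelid2 (2.76).

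Families and partners of the genes were followed through lists that leave out the 10 genes themselves. Of 131 listed genes tested, 0 were called by edgeR, 26 had an unadjusted p below 0.05, and DESeq2 called 1, Eif3j1. Over all 12338 genes the shares were 0.227% called and 13.6% with an unadjusted p below 0.05. Among the direct relatives, the other CaMKII subunits had log2 fold changes of -0.06 (Camk2d, SE 0.23) and 0.23 (Camk2g, SE 0.14), Prom1 had 0.23 (SE 0.64) and the angulin Lsr -0.12 (SE 0.15). Camk2a and Ildr1 had too few reads to be tested, and Cfhr3 was not analysed here.

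The other 46 proteins of the large ribosomal subunit had a median log2 fold change of 0.30, 44 above and 2 below 0, against -0.01 over all genes. None was called by edgeR or DESeq2, and 13 had an unadjusted p below 0.05. The 3 with the smallest p were Rpl35 (0.45, SE 0.15), Rpl15 (0.81, SE 0.29) and Rpl13a (1.24, SE 0.45). The summed level of the list was 10084 to 14976 CPM in knockout libraries and 8481 to 11901 CPM in those of wild type, which overlap. Of the 9 genes that attach or remove Ufm1, 0 were called, with a median of 0.07. Ufm1 itself had 0.31 (SE 0.17), Ddrgk1, which anchors the ligase to the endoplasmic reticulum, 0.30 (SE 0.18), and Cdk5rap3, a part of the ligase, -0.28 (SE 0.19). Of 8 genes around p53, 0 were called, with a median of 0.20. The cell cycle inhibitor Cdkn1a had 7.76 ± 4.87 CPM in wild-type and 3.35 ± 1.89 CPM in knockout liver (-1.27, SE 0.46, edgeR adjusted p = 0.333), and Rpl5 and Rpl11, which bind Mdm2, had 0.81 (SE 0.30) and 0.62 (SE 0.25).

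No listed partner of Eif3j2 or Cwc22 was called by edgeR. Of 13 eIF3 subunit genes, 0 were called, with a median of 0.18, 7 above and 6 below 0. After Eif3j1 the smallest p belonged to Eif3h (0.80, SE 0.30) and Eif3k (0.43, SE 0.18). Of 28 genes of the exon junction complex and its partners, 0 were called, with a median of -0.05, 13 above and 15 below 0. Eif4a3, the helicase that Cwc22 delivers, had 32.5 ± 3.92 CPM in wild-type and 33.7 ± 2.97 CPM in knockout liver (0.05, SE 0.14). Upf3b of nonsense-mediated decay (0.38, SE 0.13) and the spliceosome core protein gene Prpf8 (-0.46, SE 0.21) were among those with the smallest p of this list.

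No gene of the remaining pathways was called by edgeR either. Of 11 genes of calmodulin kinase signalling, 0 were called, with a median of 0.16, and the smallest p belonged to Camk1 (0.42, SE 0.15), Camk4 (-0.80, SE 0.34) and Camkk2 (-0.48, SE 0.21). Of 10 genes of this complement family and the alternative pathway, 0 were called, with a median of 0.36, 7 above and 3 below 0. They included properdin, Cfp (0.39, SE 0.17), and the complement inhibitor Cd59a (0.51, SE 0.24). Of 7 genes of angulins and tricellular junctions, 0 were called, with a median of -0.12 and 6 below 0, among them Cgn (-0.75, SE 0.37), and Marveld3 was above 0 (0.87, SE 0.42).

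**Figure D5:**
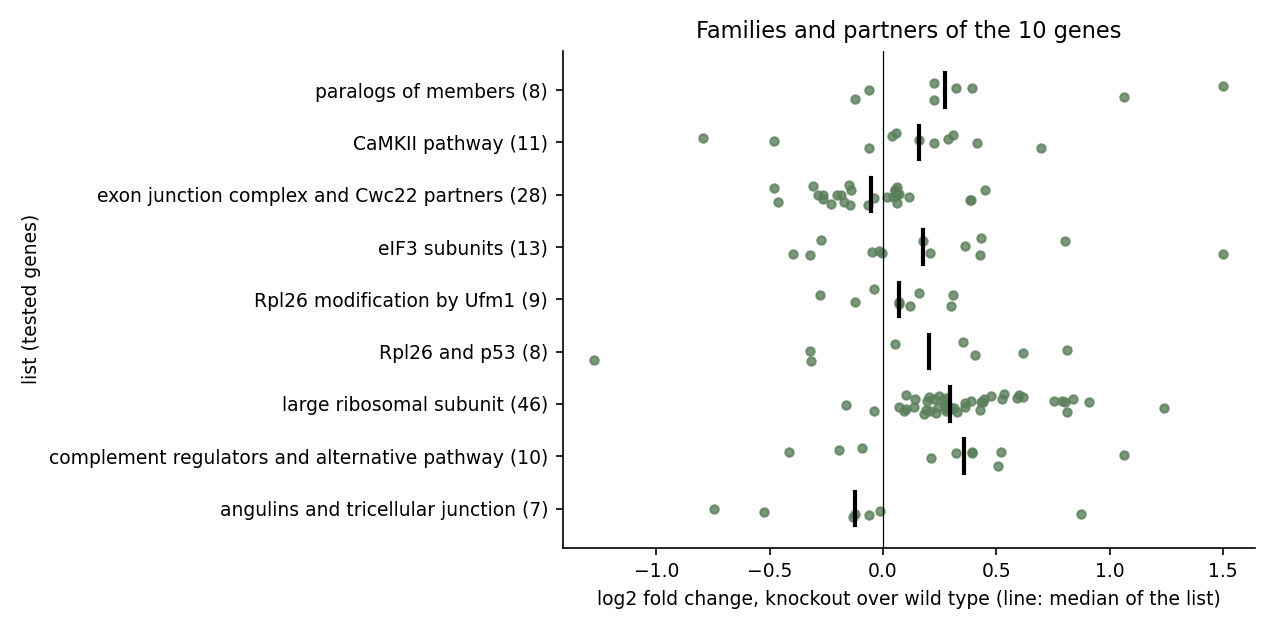
Log2 fold change (knockout over wild type) of every tested gene in each list, with the number of genes in brackets and a black line at the list's median. The medians lie between -0.12 and 0.36, and the 2 points at 1.50 are the same gene, Eif3j1, in 2 lists.

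Markers of cell types that carry Camk2b or Prom2 elsewhere were read for the same libraries, and their part in the results was not tested. Of 9 neuron markers 2 were tested and 0 called, and their summed level was 15.1 to 24.1 CPM in wild-type and 20.5 to 29.4 CPM in knockout libraries, most of it Syt1. Snap25 and Tubb3 had at most 2 and 1 reads in any library. Of 8 skeletal muscle markers 1 was tested and 0 called, with a summed level of 0.645 to 1.50 CPM in wild-type and 0.566 to 2.77 CPM in knockout libraries, and Myh4 had 0 reads throughout. For biliary epithelium, 7 of 9 markers were tested and 0 called, with 5 above and 2 below 0. Their sum was 79.1 to 94.9 CPM in wild-type and 76.9 to 153 CPM in knockout libraries, which overlap. Most of it was Spp1, at 48.9 ± 5.97 CPM in wild-type and 82.4 ± 24.0 CPM in knockout liver. Prom2 was picked for groups that do not overlap, so no contrast with these markers is drawn. Of 10 kidney and urothelium markers 1 was tested and 0 called. The tested marker, Upk1b, had 0.379 ± 0.151 CPM in wild-type and 2.18 ± 1.47 CPM in knockout liver (log2 fold change 2.52, SE 0.65, edgeR adjusted p = 0.264). The sum of the 10 was 0.472 to 0.902 CPM in wild-type and 0.978 to 4.57 CPM in knockout libraries, which do not overlap. That separation rests on few reads, as Upk1b had 3 to 6 in wild-type and 3 to 36 in knockout libraries. Slc12a1, Slc12a3, Aqp2 and Upk3a had 0 reads.

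The separation of genotypes was measured as a gap, the lowest CPM of the higher group over the highest CPM of the lower group with 0.5 read added to each. The 10 genes had gaps from 19.4 (Rpl26) down to 2.25 (Ildr2), against a median of 0.778 over all tested genes. Away from the chromosome of Stab1, 16 genes had a gap of at least 2.25. The 6 not among the 10 were Ifi202b (64.9), Cyp3a41a (4.70), Fmn2 (3.20), Sp140 (2.42), Pttg1 (2.28) and Slc15a2 (2.26). Just below lay Cyp3a41b (2.22), Cyp2c69 (2.16), Ccr3 (2.07), Cblc (1.75) and Abcb1b (1.68). The 10 genes are thus not all of the widely separated genes, and the border at Ildr2 falls among genes with nearly equal gaps. Of these 11 others, Ifi202b, an interferon-inducible gene, had 0 reads in every wild-type library, and Cyp3a41a, a cytochrome P450 gene, had 6.72 ± 0.549 CPM in wild-type and 0.523 ± 0.486 CPM in knockout liver.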

How the data were processed

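Messenger RNA of 5 Stab1 knock-out and 3 wild-type liver samples was measured by sequencing. Sample labels gave the groups and the replicate numbers. Not given in the sources used here: aligner, genome build, annotation, strandedness and the treatment of reads with several matches. The authors deposited 1 gene table of 19464 rows. Per the file headers it holds counts of unique reads, coverage in percent of gene length and RPKM for each library, and the deposited RPKM equalled values recomputed from the counts in 100% of cases, within a relative tolerance of 1e-06. Reads were summed over rows with the same gene identifier (113 identifiers), and each of the 10 genes stands on 1 row.

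Counts were tested with edgeR 4.0.16 in R 4.3.3 (TMM scaling, filterByExpr, quasi-likelihood F test, Benjamini-Hochberg adjustment over 12338 genes, threshold 0.05). The biological coefficient of variation was 24.8%. CPM used TMM-scaled sizes. No 2 libraries of a genotype agreed within sampling noise (chi-square per degree of freedom of at least 10.7). Tested on simulated counts of 5 against 3 libraries, the fit recovered 50 of 97 simulated 2-fold changes and 96 of 96 simulated 4-fold changes. It called 7 of 12142 genes simulated without change (12335 tested). Every simulated gene had the same coefficient of variation of 24.8%, so these shares do not hold for genes that spread more. In the data, Cyp3a41a (log2 fold change -3.53, edgeR adjusted p = 0.0120) was called. Fmn2 (3.65, edgeR adjusted p = 0.264) and Cyp2c69 (-2.26, edgeR adjusted p = 0.327) were not. The read length of 49 bases was inferred from the coverage of 8145 gene and library pairs with 1 read. Shared windows came from GENCODE M21 transcripts, and gene order, names and promoters from RefSeq tables (GRCm38.p6), which placed 99.8% of the tested genes.

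Alternatives were omission of each library, a replicate block, RLE scaling, no filter and DESeq2 1.42.0. The 10 genes and all lists were chosen with earlier results of these data known. Named besides the 10 genes are their paralogs, the called genes of each list or else up to 3 with the smallest p, the nearest tested gene on each side, and genes off the chromosome of Stab1 with a gap larger than, or among the 5 next below, the smallest gap of the 10. Values of some genes this rule takes in are left out here. Genes outside this rule are marked in the text as chosen with their values in view. Plots were made by matplotlib 3.10.9 (Python 3.11.15).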

Additional observations from a re-analysis of the deposited data

How the results depend on the processing

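The 10 genes were picked for groups that do not overlap, so their kept direction in all 12 alternatives is no independent support. Of their log2 fold changes in these alternatives, 119 of 120 values moved by less than the spread between replicates. The exception was Prom2, at -8.43 with the replicate block, where Camk2b was at -4.60. Leaving out 1 library moved the count of called genes between 13 and 114, from 28, and all 28 stayed called without knockout library 1. DESeq2 called 130 genes, and 1 listed gene (Eif3j1) where edgeR called 0. With the replicate block 8 genes were called, 7 of them among the 28. Of the 10 genes, 4 were called with the block, and Camk2b, Prom2, Gm4788, 9130409I23Rik, Ildr2 and Eif3j2 were not. Gm15772 was not called with the block either (edgeR adjusted p = 0.368). Ildr2 and Eif3j2 also lost the call without knockout library 4 or 5 and without wild-type library 1 or 2. Eif3j2 alone lost it without knockout library 2 or 3. No pairing by replicate number was seen, since same-numbered libraries deviated from their group means with correlations of 0.12, -0.15 and -0.15. Differently numbered libraries had correlations from -0.28 to 0.31. With so few libraries these values cannot exclude a pairing. Some log2 fold changes near 0 changed sign. Without 1 library, Camk2d ranged from -0.25 to 0.10, Prom1 from -0.17 to 0.84, Ndel1 from -0.10 to 0.26, Nudcd3 from -0.025 to 0.16, Zfp661 from -0.22 to 0.067 and Guk1 from -0.19 to 0.19. With the replicate block, Camk2d was at 0.16, Cfhr2 at -0.022 and Hmcn1 at -0.0063. Depth limits Camk2b, Prom2 and Eif3j2 most, whose knockout libraries had 0 to 5 reads. The causes of these shifts were not tested.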
